A study of Mus musculus with 3 samples.

Results

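Langerhans cells (LCs), the antigen-presenting cells that live among the keratinocytes of the epidermis, were compared directly between ear skin irritated with croton oil and ear skin injured with a microneedle array. An LC was a cell barcode in which 500 or more genes were detected and mitochondrial transcripts gave no more than 10% of the UMIs (unique molecular identifiers, each standing for 1 captured RNA molecule). In addition, Cd74, H2-Aa, H2-Ab1 and H2-Eb1 together made up at least 2% of its UMIs and it held at least 2 Epcam UMIs. Cells with 3 or more UMIs of Cd3e, Cd3g and Cd3d, or with 0.1% or more of their UMIs from S100a8 and S100a9 or from Krt14, Krt5, Krt1 and Krt10, were left out as possible T cells, neutrophils and keratinocytes. This left 6228 LCs of 8241 barcodes in the croton oil library and 5545 of 6945 in the microneedle library, which is 11773 of the 25062 barcodes of the series.

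The cells came from the epidermis of male Cd1 mice, an outbred stock, without a transgene named in the labels. For 1 library the ears had been painted with croton oil mixed with acetone and olive oil, for the other they had been given multiple microneedle punches, and both were taken 48 hours after the first treatment. A library of 9364 LCs from untreated ears, which received only the depilatory cream Nair, supplies background levels, given beside those of the treated libraries, and has no list of calls of its own. In all groups the epidermis was freed with trypsin, dead cells were removed and LCs were enriched on magnetic beads. How many animals each library pooled is not given in the sources used here, so the libraries have no replicates. There is therefore no test and no p-value below. Levels are summed UMIs of all LCs of a library as CPM, the UMIs of a gene scaled to a fixed library total, and intervals are 95% exact Poisson or binomial limits that cover counting error only. A gene counts as called when the levels, with 5 CPM added to each, lay at least 2-fold apart, among genes that reached 20 CPM in 1 of the libraries. The treatment and the library cannot be told apart.

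LCs carry langerin (Cd207), a lectin that takes up pathogens into Birbeck granules, and are held among keratinocytes by E-cadherin. They also carry the adhesion molecule Epcam. After irritation or wounding, some of them mature, switch on the chemokine receptor Ccr7 and the actin-bundling protein fascin (Fscn1), and leave for the lymph node. Croton oil is a plant irritant whose phorbol esters activate protein kinase C, whereas microneedles puncture the skin mechanically.

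The median croton oil LC had 12686 UMIs from 3703 genes and the median microneedle LC 17478 UMIs from 4349 genes, so shares of cells are given after thinning every cell to 3000 UMIs. Croton oil and microneedle libraries had 13 barcodes in common, 8 of them LCs in both. LC markers that the gate did not use were present in both libraries: E-cadherin (Cdh1) stood at 282 and 304 CPM and Cd24a at 301 and 379 CPM, croton oil first. Defining markers of other cells ranged from absent to abundant in the LCs of both libraries. The lowest included Lyz2 at 2.34 and 6.795 CPM, Ccr2 at 0.138 and 0.457 CPM and Ly6g at 0.0230 and 0 CPM. The 12 T cell markers summed to 5.96 and 11.1 CPM. The 10 neutrophil markers summed to 2718 and 4043 CPM, of which the decoy receptor Il1r2 gave 2658 and 3957 CPM and Mmp9 23.2 and 71.2 CPM, while S100a9, which the gate limits, stood at 18.9 and 7.99 CPM. Of further monocyte or macrophage markers, Adgre1 stood at 168 CPM in croton oil, 201 CPM in microneedle and 250.1 CPM in untreated LCs and Cd14 at 112, 67.8 and 20.6 CPM, while Msr1, Fcgr1, Vcan, Fn1, F13a1, Chil3, Plac8 and Ly6c2 lay between 0.0344 and 2.31 CPM with croton oil and between 0.194 and 4.501 CPM with microneedles. The 11 keratinocyte markers summed to 159 CPM with croton oil and 67.2 CPM with microneedles. Among them Lgals7, at 60.5 against 14.8 CPM, and Krt14, a gene of the gate, at 32.4 against 11.7 CPM, were 2-fold apart. The part of these cells in the results was not tested.

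Of 6625 genes tested, 107 (1.62%) were called higher in croton oil LCs and 68 (1.03%) in microneedle LCs, 2.64% in all, and the median gene differed by -0.06 on the log2 scale. Of the 6625 genes, 2849 were higher in croton oil and 3776 in microneedle LCs, and the counts of list members below are to be read against these. Under TMM scaling, which moves log2 ratios by 0.163 toward croton oil before the 5 CPM are added, the counts were 145 and 43, so the share of calls on the croton oil side went from 61.1% to 77.1%. Of the 107 genes, 95 were lower in untreated LCs than in either treated library, and untreated LCs lay nearer to microneedle LCs for 104 of them. Of the 68 genes higher with microneedles, 35 were highest in untreated LCs, 22 lay between the libraries and 11 were lowest in untreated LCs. Across all genes tested, untreated LCs lay nearer to microneedle LCs for 71.0%.

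**Figure D1:**
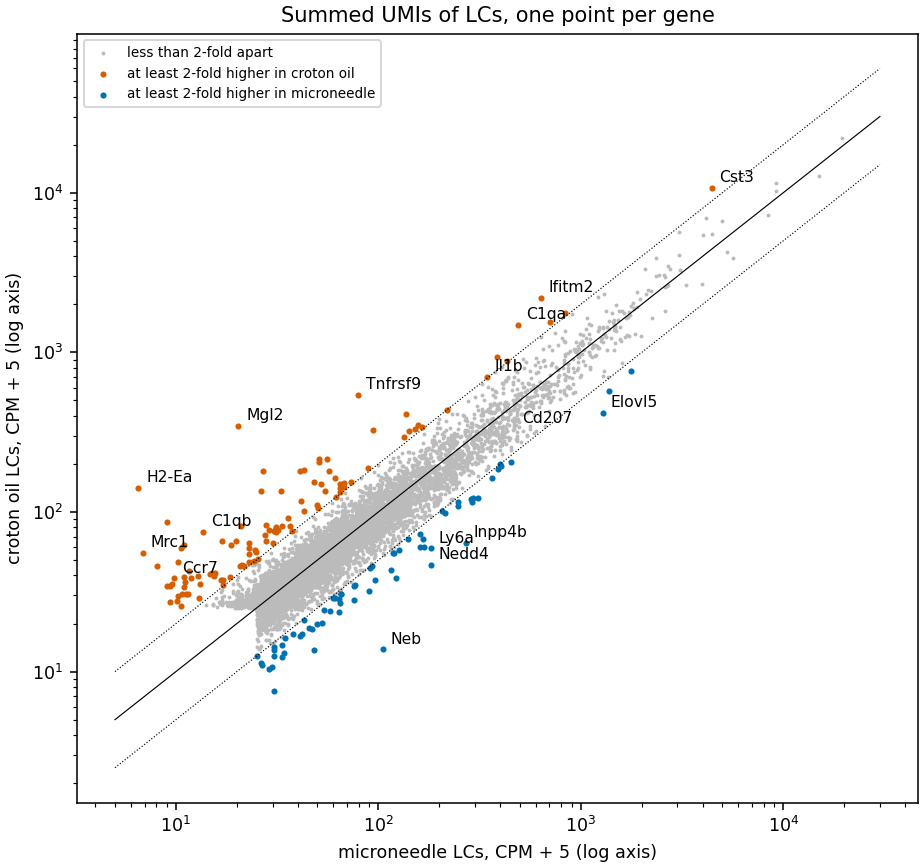
Level of each of the 6625 tested genes in croton oil LCs (vertical axis) against microneedle LCs (horizontal axis), both in CPM with 5 added, on log axes. The solid line marks equal levels and the dotted lines 2-fold differences; the 107 genes above the upper dotted line include H2-Ea, Mgl2 and Tnfrsf9, and the 68 below the lower one include Neb and Inpp4b.

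Among uptake receptors, Mgl2, a galactose-binding C-type lectin (chr11:70020954-70028376, plus strand, GRCm39), stood at 343 CPM (339 to 347) in croton oil LCs, 15.4 CPM (14.6 to 16.1) in microneedle LCs and 53.7 CPM in untreated LCs. The microneedle library thus lay below the untreated one and the croton oil library above it, and Mgl2 was 17.1-fold higher in croton oil. Mrc1, the mannose receptor (chr2:14234151-14336926, plus strand), stood at 50.2 CPM in croton oil, 1.85 CPM in microneedle and 0.336 CPM in untreated LCs. Of 11 tested C-type lectin and Fc receptor genes, 9 were higher in croton oil and 3 were called, with a median log2 difference of 0.51, or 0.07 when genes below 20 CPM were let in; the third call was the Fc receptor gene Fcgr3, at 71.9 against 25.9 CPM. Cd207 itself went the other way, with 325 CPM in croton oil, 463 CPM in microneedle and 573 CPM in untreated LCs, short of a 2-fold difference.

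The C1q chains, which start the classical complement pathway and also coat dying cells, were low in untreated LCs and highest in croton oil LCs. C1qa stood at 1481 CPM in croton oil, 486 CPM in microneedle and 59.8 CPM in untreated LCs. C1qb (chr4:136606009-136613511, minus strand) gave 69.6, 8.58 and 0.0503 CPM in the same order. C1qc, next to C1qb on chromosome 4, gave 178, 37.9 and 0.604 CPM. All 3 chains therefore had the order croton oil, microneedle, untreated. Timd4, a phosphatidylserine receptor for apoptotic cells, stood at 175 CPM in croton oil, 36.0 CPM in microneedle and 4.76 CPM in untreated LCs. Of 11 tested complement and clearance genes, 9 were higher in croton oil, 4 of them called, and 1 was called higher with microneedles; the median was 0.78, and 0.02 when genes below 20 CPM were let in. That one was the cholesterol exporter Abca1, at 52.8 CPM against 18.9 CPM, whose level in microneedle LCs was only 0.0501 of that in cells of the same library rich in Lyz2 and without Epcam.

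Genes that load and trim peptides for class II molecules differed in part. Cst3, which encodes the cysteine protease inhibitor cystatin C, was among the most abundant transcripts, at 10650 CPM in croton oil, 4428 CPM in microneedle and 6147 CPM in untreated LCs. Lgmn, the lysosomal endopeptidase legumain, stood at 149 CPM in croton oil, 68.0 CPM in microneedle and 63.3 CPM in untreated LCs. H2-Ea (chr17:34560926-34563618, minus strand), an alpha chain of the class II molecule I-E, had the widest difference of any gene, with 137 CPM (134 to 139) in croton oil, 1.52 CPM (1.29 to 1.77) in microneedle and 1.33 CPM in untreated LCs. Of 10 tested accessory genes, 7 were higher in croton oil and these 3 were called; the median was 0.40. Among the others, Ciita, the class II transactivator, stood at 223 CPM with croton oil and 301 CPM with microneedles, and Marchf1, a ubiquitin ligase that removes class II molecules from the surface, at 112 and 189 CPM. The 15 tested class I genes centred on 0.03, with none called; their median was 0.19 under TMM scaling and -0.06 with no minimum level.

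**Figure D2:**
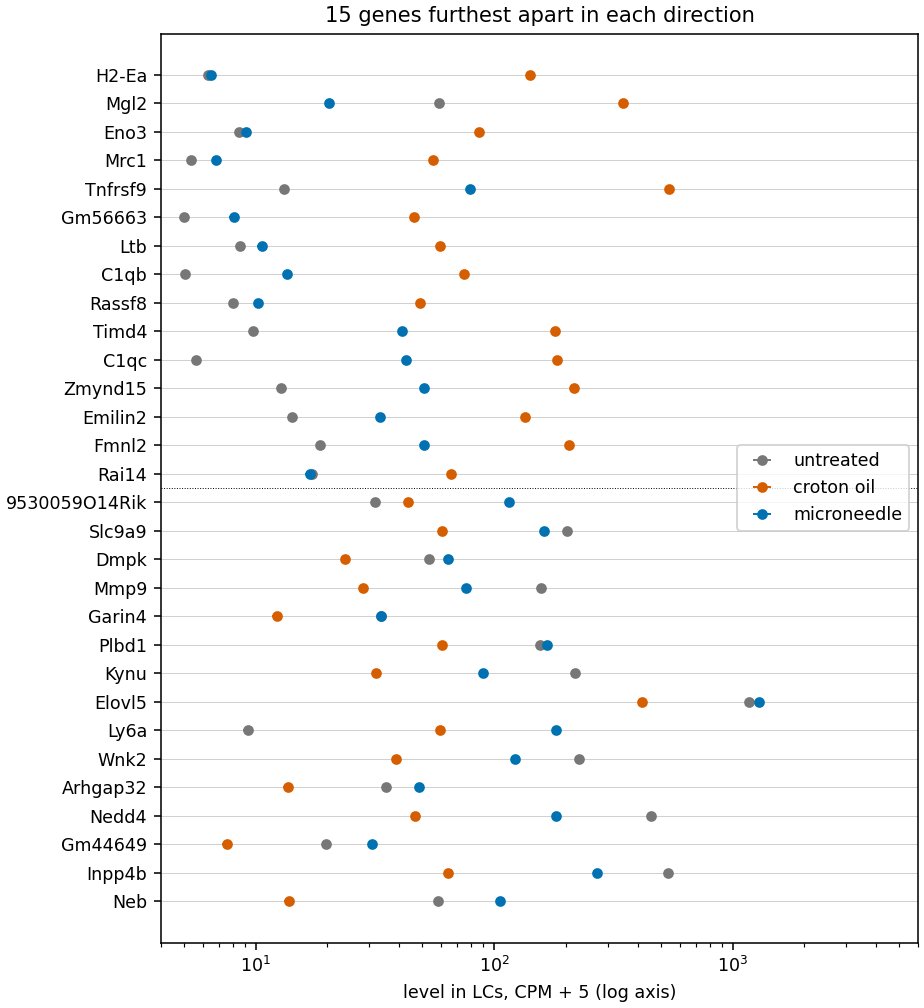
Levels in CPM with 5 added (log axis) in untreated, croton oil and microneedle LCs for the 15 genes furthest apart in each direction that passed the free-RNA limit; bars are 95% Poisson limits, mostly hidden by the points. Above the dotted line the croton oil point lies right of the microneedle point for each gene, and below it left of it.

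Several of these differences were seen as larger shares of cells with a transcript. At 3000 UMIs per cell, Mgl2 was detected in 44.6% (43.4 to 45.8) of croton oil LCs, 4.48% (3.95 to 5.06) of microneedle LCs and 14.2% of untreated LCs, against 6.28% of the 207 keratin-rich cells of the croton oil library. Without thinning the LC shares were 73.1%, 19.1% and 41.3%. H2-Ea was detected in 28.2% of croton oil LCs (54.4% unthinned) against 0.564% of microneedle LCs, with 5.31% in keratin-rich cells of the croton oil library. C1qa was detected in 89.4% of croton oil, 63.2% of microneedle and 14.8% of untreated LCs, against 23.7% of keratin-rich cells with croton oil. C1qb was detected in 14.1% and 2.11% of croton oil and microneedle LCs, and Mrc1 in 7.44% and 0.237%. Keratin-rich cells had a median of 54041 UMIs before thinning, against 12710 in these LCs, so their shares come from the deeper cells. Mgl2, H2-Ea, C1qa, C1qb and Mrc1 all stood above the share in keratin-rich cells of the same library. In CPM, Cd3-positive and S100a8/S100a9-rich cells of the croton oil library held more of these genes than keratin-rich cells, but less than LCs. Mrc1 stood at 27.32 CPM in Cd3-positive, 28.2 CPM in S100a8/S100a9-rich and 4.225 CPM in keratin-rich cells, against 50.15 CPM in LCs. C1qa stood at 682.9, 404.7, 161.5 and 1481 CPM in that order, and H2-Ea at 62.77, 35.25, 13.97 and 136.6 CPM.

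**Figure D3:**
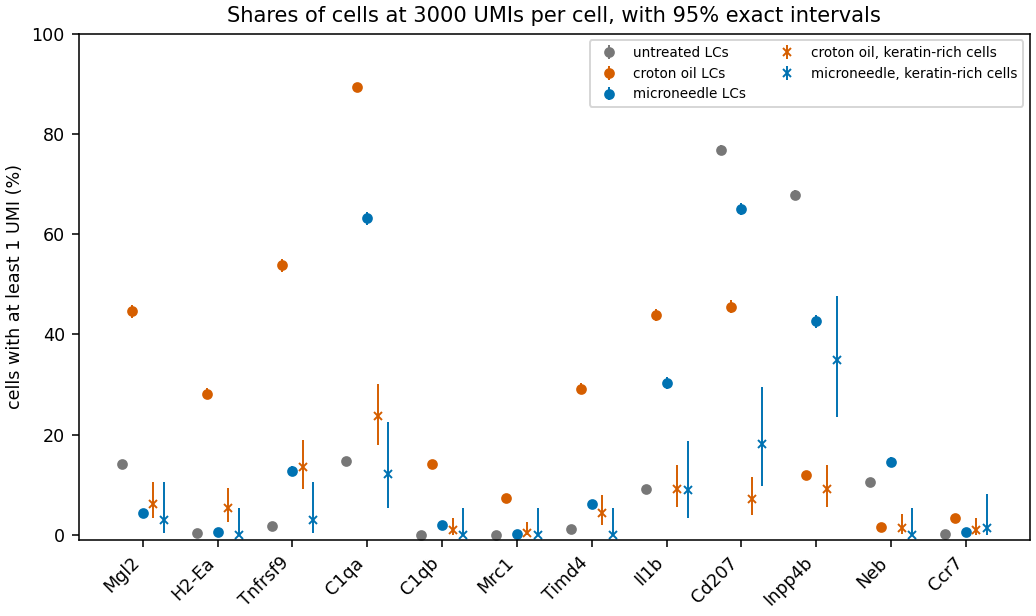
Percentage of cells with at least 1 UMI of each gene after thinning to 3000 UMIs per cell, for LCs (circles) of the 3 libraries and keratin-rich cells (crosses) of the treated libraries, with 95% exact binomial limits. Mgl2, H2-Ea, Tnfrsf9, C1qa, C1qb, Mrc1 and Timd4 are highest in croton oil LCs, while Cd207, Inpp4b and Neb are lower there than in microneedle LCs.

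Within the croton oil library, detection of these genes at 3000 UMIs overlapped only in part from cell to cell. More LCs held an Mgl2 UMI without thinning, so part of the cells counted as without Mgl2 are missed detections. The percentages below describe detection at this depth and cannot tell missed from absent transcripts. Of the 2764 LCs with an Mgl2 UMI at 3000 UMIs per cell, 5.86% (5.01 to 6.803) also held Mrc1, against 8.71% (7.79 to 9.70) of the 3434 without. H2-Ea was detected in 24.9% of LCs with Mgl2 and 30.8% of those without, and C1qc in 30.7% and 35.7%. Timd4 went with Mgl2, at 37.9% (36.1 to 39.7) against 22.2% (20.8 to 23.6), and so did Tnfrsf9, at 61.0% against 48.0%, and the enolase gene Eno3, at 24.5% against 10.8%. Cd207 was detected at 46.6% and 44.7%. Without thinning, 22.6% of croton oil LCs and 4.72% of microneedle LCs held no Cd207 UMI. With a Cd207 UMI required, 106 of the 107 croton oil genes and 66 of the 68 microneedle genes were still 2-fold apart. Among croton oil LCs, C1qb stood at 98.6 CPM in those without a Cd207 UMI and 63.0 CPM in those with one, and Mgl2 at 283 and 357 CPM.

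Among costimulatory genes, Tnfrsf9, which encodes the costimulatory receptor 4-1BB (chr4:150999019-151030559, plus strand), stood at 536 CPM (532 to 541) in croton oil, 74.4 CPM (72.7 to 76.1) in microneedle and 8.09 CPM in untreated LCs, and was detected in 53.8%, 12.8% and 1.87% of cells. T cells also express it, and the Cd3-positive cells of the croton oil library had it in 49.3%, keratin-rich cells in 13.5%. Ltb, a lymphotoxin chain, stood at 54.3 CPM in croton oil, 5.60 CPM in microneedle and 3.59 CPM in untreated LCs. In the croton oil library Ltb was higher outside LCs, at 171 CPM in S100a8/S100a9-rich and 77.3 CPM in Cd3-positive cells. Among 11 tested inflammatory ligands, 8 were higher in croton oil with 5 called, and 1 was called higher with microneedles; the median was 0.96, and 0.12 when genes below 20 CPM were let in. Il1b, the precursor of interleukin 1 beta, stood at 698 CPM in croton oil, 339 CPM in microneedle and 73.1 CPM in untreated LCs. The neutrophil chemoattractant Cxcl1 stood at 129, 59.9 and 18.1 CPM, and the regulatory cytokine Il10 at 34.7, 10.4 and 0.981 CPM. These 3 had the order croton oil, microneedle, untreated. Ccl3 and Ccl4 were called as well, but their levels in croton oil LCs were 0.0279 and 0.0482 of those in S100a8/S100a9-rich cells of that library. Tnf stood at 263 CPM with croton oil and 264 CPM with microneedles, and at 610 CPM in untreated LCs. Il15, a cytokine that sustains T and natural killer cells, was the microneedle call, with 42.0 CPM against 13.5 CPM and 62.5 CPM in untreated LCs.

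Of 24 tested cytokine and chemokine receptor genes, 14 were higher in microneedle LCs and 1 was called, in croton oil; their median of -0.10 turned to 0.06 under TMM scaling. The call was Ccr1, a receptor for inflammatory chemokines, at 77.1 CPM in croton oil, 16.1 CPM in microneedle and 5.14 CPM in untreated LCs. The level of Ccr1 in croton oil LCs was 0.128 of that in S100a8/S100a9-rich cells of that library. Il1r2 was abundant in every library, with 2510 CPM in untreated LCs. None of 19 NF-kB genes was called, and their median of -0.09 was 0.06 under TMM scaling; the furthest apart were the signalling adaptor Traf1, at 50.6 against 24.5 CPM, and Tnip1, a partner of A20, at 99.7 against 201 CPM, and the inhibitor Nfkbia stood at 869 against 529 CPM. No call was made among the 22 immediate early genes either, whose median was -0.12 and 0.04 under TMM scaling.

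Interferon-stimulated genes held calls in both directions. Of 23 tested, 16 were higher in microneedle LCs, 4 of them called, and 2 were called higher in croton oil; the median was -0.34, and -0.20 under TMM scaling. Ly6a, which encodes the surface protein Sca-1, stood at 177 CPM in microneedle, 54.1 CPM in croton oil and 4.24 CPM in untreated LCs. It was detected in 27.9% of microneedle and 11.8% of croton oil LCs, but in 62.1% and 71.5% of keratin-rich cells. Its level in microneedle LCs was 0.64 of that in keratin-rich cells of the library. Irf7, the transcription factor that amplifies interferon production, stood at 29.2, 8.10 and 3.34 CPM, microneedle first. The level of Irf7 in microneedle LCs was 0.116 of that in cells rich in Lyz2 and without Epcam. Ifi44 and Ifi27l2a were the other 2 calls, and their levels in microneedle LCs were 0.0796 and 0.0296 of those in cells rich in Lyz2 and without Epcam. Isg15, a ubiquitin-like modifier, gave 36.4 and 19.97 CPM, Stat2, which carries the interferon signal to the nucleus, 75.4 and 43.8 CPM, and Bst2, which tethers budding virus, 52.8 and 33.6 CPM, microneedle first and short of 2-fold. The level of Isg15 in microneedle LCs was 0.0373 of that in S100a8/S100a9-rich cells. Ifitm2, a membrane protein that blocks virus entry, had the opposite order: 2193 CPM in croton oil, 627 CPM in microneedle and 172 CPM in untreated LCs. Ifitm2 has close paralogs, and reads that fit more than 1 of them could not be followed here. Ifitm1 was also called higher in croton oil, at 57.2 against 5.90 CPM, with a level in LCs that was 0.0425 of that in S100a8/S100a9-rich cells.

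The 250 bases before the start site of 4 of these genes are shown because members that lay on opposite sides of the comparison held the same letters. The interferon-stimulated response element core was searched as GAAA and a second GAAA with any 2 bases between them, on both strands, and its matches are in capitals; matches may overlap one another. Sequences are RefSeq promoters of build GRCm38.p6, written 5′ to 3′ on the strand of the gene.
Isg15, chr4:156200819-156201068 (-): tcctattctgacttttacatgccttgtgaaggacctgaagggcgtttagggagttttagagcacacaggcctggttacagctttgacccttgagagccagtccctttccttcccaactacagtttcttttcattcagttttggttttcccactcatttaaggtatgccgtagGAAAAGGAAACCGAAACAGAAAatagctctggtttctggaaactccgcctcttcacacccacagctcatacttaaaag
Stat2, chr10:128270248-128270497 (+): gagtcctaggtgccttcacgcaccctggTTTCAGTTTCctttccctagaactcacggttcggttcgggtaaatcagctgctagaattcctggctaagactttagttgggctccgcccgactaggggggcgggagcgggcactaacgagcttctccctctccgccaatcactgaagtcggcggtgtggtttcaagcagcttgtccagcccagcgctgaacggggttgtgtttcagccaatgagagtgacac
Bst2, chr8:71537473-71537722 (-): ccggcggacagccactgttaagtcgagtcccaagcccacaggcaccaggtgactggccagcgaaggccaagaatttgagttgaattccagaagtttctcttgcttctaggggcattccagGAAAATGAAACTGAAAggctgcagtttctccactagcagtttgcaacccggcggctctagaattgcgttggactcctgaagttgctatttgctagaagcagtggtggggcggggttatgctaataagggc
Ifitm2, chr7:140955962-140956211 (-): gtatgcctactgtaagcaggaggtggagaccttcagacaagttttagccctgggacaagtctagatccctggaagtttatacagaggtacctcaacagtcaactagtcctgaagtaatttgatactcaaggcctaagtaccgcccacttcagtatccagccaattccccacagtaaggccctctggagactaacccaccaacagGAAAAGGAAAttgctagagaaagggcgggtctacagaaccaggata
Isg15 had 3 overlapping matches, starting 78, 72 and 66 bases before the start site, and Bst2 had 2, at 130 and 124 bases. Stat2 had 1 at 222 bases and Ifitm2 1 at 46 bases. Of the 18 tested interferon-stimulated genes with a RefSeq promoter, 7 (38.9%) held a match, against 3.46% of all 27025 genes in that table. Among the 7, Ifitm2 and the feedback inhibitor Socs1 were higher in croton oil, and Bst2, Gbp7, Isg15, Stat2 and Trim30a were higher in microneedle LCs. Among the 11 genes with a RefSeq promoter of the 15 furthest toward croton oil, 1, Emilin2, held this core, as did 0 of 9 toward microneedles. The AP-1 letters TGANTCA, searched likewise, were in 1 of the 11, Tnfrsf9, in 2 of the 9, Nedd4 and Slc9a9, and in 7.82% of all promoters. The NF-kB letters, GGGA and TTTCC with any base between, were in 1 of the 11, Ltb, in 0 of the 9 and in 0.414% of all promoters. A match describes letters and is no evidence of a bound factor.

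Sterol synthesis genes were the list furthest toward microneedle LCs. Of 21 tested genes of cholesterol and fatty acid synthesis, 18 were higher with microneedles and 3 of them were called; the median was -0.70, and -0.55 under TMM scaling. Relative to untreated LCs the median was 1.56 in microneedle and 0.65 in croton oil LCs. Of the called genes, Cyp51, lanosterol demethylase, stood at 241 CPM in microneedle, 104 CPM in croton oil and 78.3 CPM in untreated LCs, and Msmo1, the methylsterol oxidase that acts after it, at 386, 180 and 88.7 CPM. Both had the order microneedle, croton oil, untreated. Hmgcs1, which makes HMG-CoA early in the pathway, stood at 341, 185 and 105 CPM in that order, short of 2-fold between the treatments. Scd1, which desaturates fatty acids, was the single call in the other direction, at 119 CPM in croton oil, 56.9 CPM in microneedle and 14.7 CPM in untreated LCs; its log2 difference of 1.01 fell under 2-fold in 3 of 13 settings. Elovl5, which elongates polyunsaturated fatty acids and was not on the list, stood at 1280 CPM in microneedle, 413 CPM in croton oil and 1171 CPM in untreated LCs. Hmgcs1 was the one member of the list, among 12 with a RefSeq promoter, that held the sterol regulatory element TCACNCCAC (8.33%, against 1.22% of all genes), 137 bases before its start site, and the window is shown with that match in capitals. Of the 11 genes furthest toward croton oil with a RefSeq promoter, 1, Timd4, held these letters too, and of the 9 toward microneedles 0.
Hmgcs1, chr13:119690101-119690350 (+): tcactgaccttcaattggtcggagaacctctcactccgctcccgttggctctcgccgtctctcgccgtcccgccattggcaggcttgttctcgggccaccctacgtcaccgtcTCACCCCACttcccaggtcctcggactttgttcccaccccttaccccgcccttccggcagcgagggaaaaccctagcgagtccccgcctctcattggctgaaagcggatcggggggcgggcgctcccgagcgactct

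Neb was the gene furthest toward microneedle LCs. Neb encodes nebulin, a giant actin-binding protein best known from muscle (chr2:52026659-52268486, minus strand), and stood at 100.4 CPM (98.5 to 102) in microneedle, 8.78 CPM (8.17 to 9.43) in croton oil and 53.0 CPM in untreated LCs. It was detected in 14.7%, 1.66% and 10.5% of cells, against 0 of 66 keratin-rich cells with microneedles, which allows up to 5.44%. Inpp4b, a phosphatase of phosphoinositides (chr8:82069185-82854543, plus strand), stood at 266 CPM in microneedle, 59.3 CPM in croton oil and 529 CPM in untreated LCs. The ubiquitin ligase gene Nedd4 (chr9:72569596-72657134, plus strand) gave 177, 41.6 and 449 CPM in that order, the kinase gene Wnk2 117, 33.8 and 222 CPM, and Kynu, an enzyme of tryptophan breakdown, 84.4, 26.9 and 213 CPM. Inpp4b, Nedd4, Wnk2 and Kynu were thus highest in untreated and lowest in croton oil LCs. Mmp9, a gelatinase, had the same order at 71.2, 23.2 and 152 CPM and was the 1 of 12 tested matrix proteases and inhibitors called for microneedles.

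The remaining lists held few calls. Of 31 tested actin and adhesion genes, 21 were higher in croton oil with a median of 0.36; the capping protein gene Capg was called there, at 148 against 62.4 CPM, and the integrin gene Itga6 for microneedles, at 36.9 against 12.2 CPM, with a level that was 0.0545 of that in keratin-rich cells. Beta-actin (Actb) stood at 6974 CPM with croton oil and 4146 CPM with microneedles, and profilin (Pfn1) at 1325 and 741 CPM. Of 22 nuclear genes for respiratory chain subunits, 18 were higher in croton oil with a median of 0.27, and of 20 glycolysis and hypoxia genes, 15 with a median of 0.27, none called; under TMM scaling the medians were 0.43 and 0.46. The 83 cytosolic ribosomal protein genes had a median of 0.06, and 0.22 under TMM scaling, and the 13 mitochondrially encoded genes 0.05 and 0.21. Of 14 tested heat-shock chaperones, 10 were higher in croton oil and none was called, with a median of 0.15, and 0.30 under TMM scaling. Of 10 tested genes of IL-4, IL-13 and alternative activation, 8 were higher in croton oil and 2, Mgl2 and Mrc1, were called, with a median of 0.21, which ran from 0.09 at a minimum of 50 CPM to 0.46 with a wider gate, described below, that adds Ccr7-positive cells. Of 6 tested S phase genes, 4 were higher in microneedle LCs and none was called, with a median of -0.15, which ran from -0.44 at a minimum of 50 CPM to -0.004 under TMM scaling. Of 18 tested genes of LC identity and residence, 12 were higher in microneedle LCs and 1, Zeb2, was called, in croton oil, at 41.6 against 16.2 CPM and 0.0918 of its level in S100a8/S100a9-rich cells; the list's median of -0.09 was 0.07 under TMM scaling. Mfge8, a bridge between dying cells and phagocytes, stood at 2210 CPM in croton oil, 1205 CPM in microneedle and 465 CPM in untreated LCs. Only 2 of 24 G2/M genes were tested, of which Cenpa, a centromeric histone, stood at 145 CPM with croton oil and 46.8 CPM with microneedles and Mki67, a proliferation marker, at 34.4 and 65.4 CPM. Of 11 tested eicosanoid genes and 5 tested repair factors none was called; Hpgd, which breaks down prostaglandins, came nearest, at 42.0 CPM in croton oil, 88.4 CPM in microneedle and 447 CPM in untreated LCs.

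**Figure D4:**
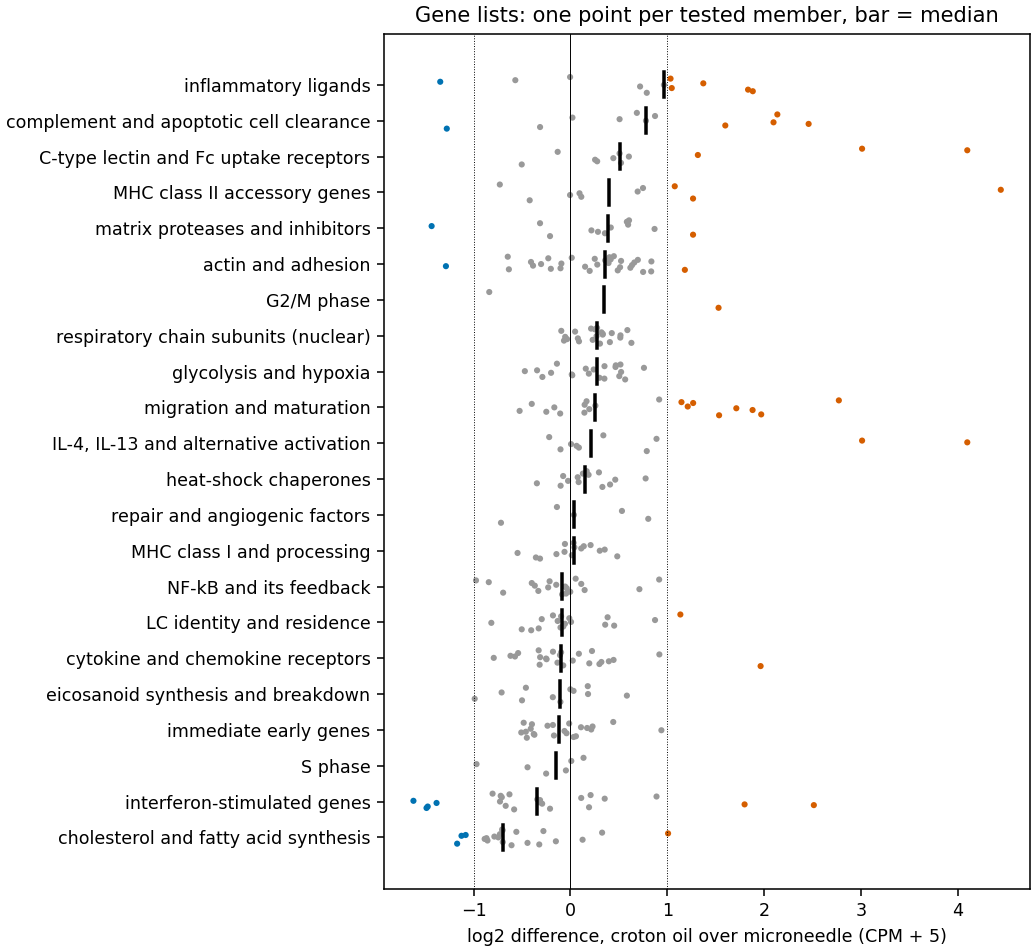
Log2 difference of croton oil over microneedle LCs (horizontal axis) for each tested member of 22 gene lists, gate genes left out; the black bar is the median of a list and the dotted lines are 2-fold differences. Inflammatory ligands lie furthest to the croton oil side, with a median of 0.96, and cholesterol and fatty acid synthesis furthest to the microneedle side, with a median of -0.70. Among members that passed the free-RNA limit, the median was 0.79 for inflammatory ligands and 0.83 for complement and apoptotic cell clearance.

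Ccr7-positive LCs were more frequent with croton oil. At 3000 UMIs per cell, 3.34% (2.91 to 3.82) of croton oil LCs, 0.583% (0.399 to 0.821) of microneedle LCs and 0.130% (0.0670 to 0.226) of untreated LCs held a Ccr7 UMI, and without thinning 5.78%, 1.497% and 0.203%. Keratin-rich cells had Ccr7 in 0.966% with croton oil and in 1.52% (0.0384 to 8.16) with microneedles. The background with microneedles rests on 1 of 66 cells, and the LC share lies below it but within its limits, so these shares alone cannot set them apart. The 83 microneedle LCs with a Ccr7 UMI before thinning held Fscn1 at 300.0 CPM and Il4i1 at 196 CPM, against 0.951 and 3.16 CPM in those without. Cd3-positive cells, which can include Ccr7-bearing T cells, had 6.61% with croton oil. The gate itself left out most Ccr7-positive cells: of the cells that passed the gene and mitochondrial limits, 1133 held a Ccr7 UMI with croton oil and 264 with microneedles, and 624 and 170 of these were under the class II minimum. Adding back the Ccr7-positive cells that failed only the class II or Epcam minimum, a choice made after the data were seen, gave shares of 11.9% with croton oil, 3.20% with microneedles and 0.194% untreated. With these cells, 136 of 6666 genes (2.04%) were called higher in croton oil and 86 (1.29%) in microneedle cells, 3.33% in all.

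With the 360 croton oil and 83 microneedle LCs that held a Ccr7 UMI left out, 94 of 6612 genes (1.42%) were called higher in croton oil and 66 (0.998%) in microneedle LCs, and 93 and 65 of these were called in all LCs too. Under TMM scaling the counts were 136 and 42. So 14 croton oil and 3 microneedle calls of all LCs were not made without these cells, some of them by a small margin. Ccr7, at 33.4 CPM in croton oil, 4.80 CPM in microneedle and 0.772 CPM in untreated LCs, was removed by construction. Fscn1, fascin, stood at 37.9 and 6.67 CPM in all LCs but at 2.42 and 0.951 CPM without these cells, so its log2 difference went from 1.88 to 0.32. Levels this far under 20 CPM were not tested, and the added 5 CPM draws their difference toward 0. Il4i1, an amino acid oxidase of mature dendritic cells, went from 1.71 to 0.74, and Samsn1, a signalling adaptor, from 1.27 to 0.31, with a level in croton oil LCs that was 0.0766 of that in S100a8/S100a9-rich cells, while the log2 difference of Cxcl1 went from 1.05 to 0.96. Without these cells Il4i1 stood at 8.60 CPM with croton oil and 3.16 CPM with microneedles, where the added 5 CPM weighs likewise. Ccr7, Fscn1, Il4i1, Samsn1 and Cxcl1 aside, the croton oil calls lost were Lima1, Rftn1, Serpinb6b, Nrp2, Crip1, Cstb, Med29, Cacnb3 and Gabbr2, and the last 2 stayed over 2-fold apart but fell under 20 CPM in both libraries. Of the 19 tested migration and maturation genes, 14 were higher in croton oil and 8 were called, with a median of 0.26. This median was 0.74 under TMM scaling and 1.27 with the wider gate. Without Ccr7-positive cells 8 of 14 were higher and 2, Tnfrsf9 and Marcks, were called, with a median of 0.06. The 14 leave out Ccr7, Fscn1, Il4i1, Cacnb3 and Serpinb6b, croton oil calls that fell under 20 CPM in both libraries. The median of 0.06 therefore covers fewer genes than that of 0.26. The costimulatory ligand Cd86 was lower in croton oil than in microneedle LCs in both settings, at 3918 against 5641 CPM over all LCs, short of 2-fold.

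The genes furthest apart moved to different degrees. Without these cells the log2 difference of Mgl2 went from 4.10 to 4.04, that of H2-Ea from 4.44 to 4.47, that of Tnfrsf9 from 2.77 to 2.73 and that of Mrc1 from 3.01 to 3.06, but that of Eno3 from 3.25 to 3.03. Fabp5, a fatty acid binding protein, went from 2.73 to 2.02, with 174 CPM in all croton oil LCs and 89.8 CPM without these cells, against 22.1 and 18.3 CPM in microneedle LCs. Its level in croton oil LCs was 0.0254 of that in keratin-rich cells. Toward microneedles, Neb went from -2.94 to -2.91 and Inpp4b from -2.08 to -2.04. Only 3 calls were lost there, those of Efnb2, Atp13a2 and Nbea, of which Efnb2 went from -1.03 to -0.99. Between the Ccr7-positive LCs of the libraries, the log2 difference of Mgl2 was 5.01, Tnfrsf9 stood at 1323 and 437 CPM, Fscn1 at 482 and 300.0 CPM and Neb at 5.27 and 67.6 CPM. Of the 107 croton oil calls 106 kept their direction in Ccr7-positive LCs, and of the 68 microneedle calls 68. In those cells alone 111 of 6720 genes (1.65%) were called higher in croton oil and 248 (3.69%) in microneedle LCs, 5.34% in all, the latter from 83 cells.

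**Figure D5:**
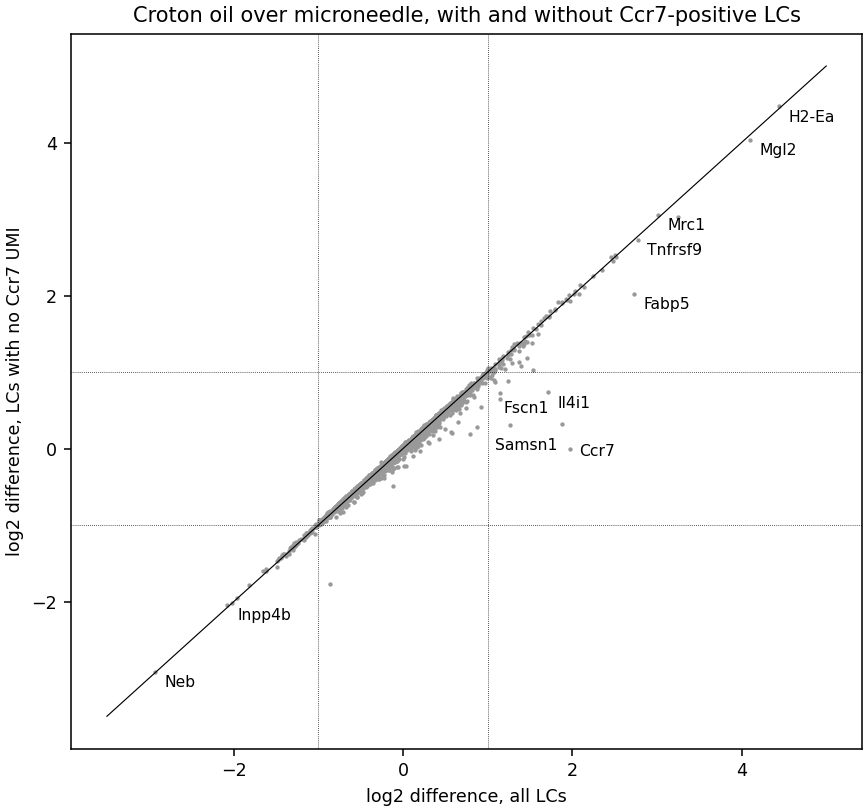
Log2 difference of croton oil over microneedle for each tested gene in all LCs (horizontal axis) and in LCs without a Ccr7 UMI (vertical axis); the diagonal marks equal values and dotted lines 2-fold differences. Ccr7, Fscn1, Samsn1 and Il4i1 drop toward 0 while Mgl2, H2-Ea, Tnfrsf9, Mrc1, Neb and Inpp4b stay on the diagonal. Without the Ccr7-positive cells, Ccr7, Fscn1 and Il4i1 were under 20 CPM in both libraries, where the added 5 CPM draws values toward 0.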

How the data were processed

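The deposited values were UMI counts per gene and cell barcode for 34289 features, made by the authors with Cell Ranger, whose version is 8.0.0 per the file headers, and GRCm39, per the submitters' processing notes. Reads came from the 3' end of polyadenylated RNA, per the labels, so a level says nothing of the rest of a transcript. Of the features, 33767 matched GENCODE M39, from which coordinates were taken, and 80 shared a symbol with another.

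Counts were summed over the LCs of a library and divided by their total. Differences are log2 of croton oil over microneedle with 5 CPM added to each, which understates differences of low genes. The totals were 87122503 UMIs over croton oil, 102870798 over microneedle and 119218765 over untreated LCs. As free-RNA limit, the LC level in the library where a gene was higher had to reach 0.1 of that in every other class of at least 30 cells: keratin-rich, S100a8/S100a9-rich, Cd3-positive, and Lyz2-rich without Epcam, the last not used in croton oil, where it held 1 cell. Of all 6625 genes tested 44 did not reach it, among them 12 of the 107 calls for croton oil and 4 of the 68 for microneedle, among the 12 Krt14, a gene of the gate. Scrublet marked 2, 0 and 0 cells of the untreated, croton oil and microneedle libraries and so did not work as a caller; doublets stayed in, and an alternative left out the 412 croton oil and 289 microneedle LCs among the highest scores, at a rate of 0.8% per 1000 cells.

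The text and figures name genes from the 15 furthest apart in each direction that passed the free-RNA limit, the genes that moved most without Ccr7-positive cells, members of each list that were called or furthest apart, and Cd207, Epcam, Cd74 and Ccr7. Further members, such as the C1q neighbours, Isg15, Stat2, Bst2, Hmgcs1, Actb, Tnf and Il1r2, were picked from the lists after their values were seen. Many members of these groups are given only by their counts and medians, and some results are not reported here. Members and lists were chosen with earlier results of these data known. List symbols numbering 5 were not found under a unique symbol. The summing and calling step was tested on simulated counts. Alternatives changed the scaling (TMM, edgeR 4.0.16), the added CPM, the minimum level, cell weights and the gate. Python 3.11.15, numpy 2.4.6, scipy 1.17.1, pandas 2.3.3, scanpy 1.11.5, scikit-learn 1.9.0, matplotlib 3.10.9 and R 4.3.3 were used.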

Additional observations from a re-analysis of the deposited data

Results flagged for a closer look

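The feature lists hold 4 transgene sequences that no label mentions. UMIs of mCherry stood at 4.92 CPM in croton oil LCs (429 UMIs) and at 1.95 CPM in microneedle LCs (201 UMIs), both above the 1.21 CPM of untreated LCs (144 UMIs), which drew attention because no comparison uses this feature. The eGFP feature stood at 0.620, 1.48 and 1.48 CPM, in croton oil, microneedle and untreated LCs, and tdTomato and creER at 0 UMIs in all 3.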

How the results depend on the processing

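No paired analysis was possible because each group has 1 library. Over all LCs, the microneedle count went from 68 to 43 under TMM scaling and to 105 with 1 CPM added, and with a minimum of 50 CPM the counts were 71 for croton oil and 45 for microneedle; without Ccr7-positive cells, the microneedle count went from 66 to 42 under TMM scaling and 102 with 1 CPM added. The cause was not tested, except that the 50 CPM minimum tests fewer genes. The other alternatives for these counts stayed within 1.5 times. The share of LCs with a Ccr7 UMI depended on depth and gate: for croton oil it was 5.78% without thinning, 3.87% at 5000 UMIs, 1.90% with 2 or more UMIs, 3.87% with a Cd207 UMI required, 2.68% with the highest Scrublet scores left out and 11.9% with the wider gate; for microneedle 1.497% without thinning, 0.328% with 2 or more UMIs and 3.20% with the wider gate; for untreated 0.0540% with 2 or more UMIs. In each of these settings croton oil was highest. Of 64 named genes called, 52 stayed 2-fold apart in all 13 settings and only Ccr7 lost its sign, where its cells are removed. Of 24 list medians, 8 changed sign in some setting, 5 of them under TMM scaling. With 1 library a group, depth bounds counting error but not the spread between animals.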

Other observations

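Other genes, picked after their values were seen, also stood at least 2-fold apart. Dcstamp and Ocstamp, which encode membrane proteins needed for the fusion of osteoclasts and macrophages, were both higher in croton oil LCs. Dcstamp stood at 77.4 CPM in croton oil, 22.7 CPM in microneedle and 4.51 CPM in untreated LCs, and Ocstamp at 29.5, 4.05 and 0.310 CPM. The cytokine feedback inhibitor Socs3 stood at 112, 36.6 and 23.8 CPM, the transcription factor Bhlhe40 at 159, 56.2 and 5.76 CPM, and Gpr183, an oxysterol receptor that guides immune cells, at 881, 424 and 101 CPM, in the same order. The metallothionein gene Mt1 stood at 928, 381 and 179 CPM. All of these had the order croton oil, microneedle, untreated.

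Toward microneedles, the insulin receptor gene Insr stood at 307 CPM in microneedle, 118 CPM in croton oil and 164 CPM in untreated LCs. The cyclin gene Ccnd3 stood at 284, 111 and 273 CPM, the clock repressor Nr1d2 at 114, 50.4 and 143 CPM, and Slc16a10, an aromatic amino acid transporter, at 113, 50.7 and 102 CPM. For Ccnd3, Nr1d2 and Slc16a10 the croton oil library was the one that stood lowest, with untreated and microneedle LCs close together.

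H2-Ea was uneven within croton oil LCs. Of 6228 cells, 2839 held no H2-Ea UMI and 2568 held at least 2, with up to 27 in 1 cell, against up to 4 in a microneedle LC and 5 in an untreated LC. As background, some MHC haplotypes of mice do not transcribe this gene, and the Cd1 stock is outbred. Between the croton oil LCs with at least 2 and those with 0 UMIs, whose median depths were 13152 and 12484 UMIs, 11 of 6352 tested genes lay at least 2-fold apart. Clec4n, the lectin dectin-2, stood at 101 against 23.9 CPM, Spp1, osteopontin, at 191 against 50.7 CPM, and Mrc1 at 69.5 against 28.8 CPM. Tnnt1 and Ccl22 went the other way, at 5.44 against 21.1 CPM and 20.9 against 47.5 CPM. The level of Spp1 in croton oil LCs was 0.0469 of that in S100a8/S100a9-rich cells. Of these 11, H2-M5 and Or5v1b lie on chromosome 17 with H2-Ea, 2.73 and 3.26 Mb away, at 80.5 against 31.6 and 73.1 against 32.2 CPM. The cells were split by the measured gene, so this is a description.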
